A study of Mus musculus with 8 samples.

Results

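The genes described here are 10 members of the Wnt pathway, chosen by name and taken in the order of their roles: the secreted inhibitors *Sfrp1*, *Sfrp2*, *Sfrp4*, *Dkk1* and *Dkk2*, the receptor *Ror2*, the transducers *Ctnnb1*, *Tcf7l2* and *Lef1*, and the target *Axin2*. They are 10 of 21938 protein-coding genes of the GENCODE annotation. All were measured by chromatin immunocleavage sequencing (ChIC-Seq), in which an antibody brings a nuclease to the chromatin its antigen occupies and the released fragments are sequenced. The antibodies were against PBRM1, also called BAF180, and BRG1, the motor ATPase, both parts of the chromatin remodeler SWI/SNF, with 3 replicates per antibody. All libraries came from primary uterine stromal cells of WT mice aged 8 to 12 weeks on D4, with 5 to 10 mice pooled, 50000 cells per library, 5 minutes of fixation and 3 minutes of nuclease digestion according to the labels. The labels speak of mating to start pregnancy, whereas the extraction notes speak of pseudopregnant uteri. No mutant and no other day is part of this comparison, and the 2 IgG libraries were not analysed here, so no control antibody stands beside the peaks.

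Wnt ligands bind Frizzled and LRP receptors at the cell surface, which stops the destruction of β-catenin and lets it enter the nucleus, where it works with TCF/LEF factors at target genes. SFRP proteins bind Wnt ligands outside the cell, and DKK proteins bind the LRP coreceptors. ROR2 is a receptor of the branch that does not run through β-catenin. In the uterus, Wnt signaling is known for its part in gland formation, implantation and decidualization of the stroma.

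A peak is a stretch of the genome where fragments pile up over the local background of the same library. Its fold enrichment is the ratio of pileup to that background as MACS reported it. A promoter peak lies within 2000 bp of an annotated transcription start site (TSS) of the gene, and a gene-body peak lies in the gene outside those windows. The replicates held 8868777 to 16505239 fragments and 21912 to 26363 peaks for PBRM1, and 11506964 to 14595089 fragments and 36656 to 40610 peaks for BRG1. The pooled lists of each antibody, made from the fragments of its 3 replicates, held 55119 and 82669 peaks. The background of each library sets its own scale for fold enrichment, so libraries were compared by the percentile of a peak within its own list. The median fold enrichment of a list was 5.80, 5.15 and 4.75 in the PBRM1 replicates and 5.15, 5.26 and 5.27 in the BRG1 replicates. Where fold enrichments of the antibodies are set side by side below, the share of all genes with the same order was not counted. A percentile depends in turn on the other peaks of its list, and the BRG1 lists were the longer. An absent peak may mean absent binding or too few fragments, which cannot be told apart in a peak list.

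The sequences around the summits are shown first for the sites whose window of 100 bp to either side of the summit held a searched motif and that had a peak in at least 3 replicate lists of 1 antibody, on the plus strand of mm10 from 5′ to 3′. The motifs were the TCF/LEF strings CTTTGAT and CTTTGAA and the AP-1 string TGANTCA, as exact letters on both strands, and the palindrome of steroid receptors such as the P4 receptor. Capitals mark the match. *Axin2* is a textbook target of β-catenin, and its promoter window carried a TCF/LEF string. The lines give the *Axin2* promoter (chr11:108920300-108920500), an *Axin2* intron 3 site (chr11:108936501-108936701), an *Axin2* intron 10 site (chr11:108947467-108947667), the *Ror2* promoter with an AP-1 string (chr13:53286165-53286365) and 2 sites of *Ror2* intron 1 (chr13:53205306-53205506, called a, and chr13:53183229-53183429, called b).
Axin2 promoter: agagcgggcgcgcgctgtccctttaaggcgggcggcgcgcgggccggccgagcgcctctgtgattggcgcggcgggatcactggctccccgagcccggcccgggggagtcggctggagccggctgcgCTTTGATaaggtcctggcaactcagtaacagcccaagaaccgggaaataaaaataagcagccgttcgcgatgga
Axin2 intron 3: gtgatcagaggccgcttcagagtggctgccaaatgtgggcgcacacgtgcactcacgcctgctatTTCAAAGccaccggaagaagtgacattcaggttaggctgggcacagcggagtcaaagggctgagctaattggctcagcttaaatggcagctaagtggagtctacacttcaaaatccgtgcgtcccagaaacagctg
Axin2 intron 10: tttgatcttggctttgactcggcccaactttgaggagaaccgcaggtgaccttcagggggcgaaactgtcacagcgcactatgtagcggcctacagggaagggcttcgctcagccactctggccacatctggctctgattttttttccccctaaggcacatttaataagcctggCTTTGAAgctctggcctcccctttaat
Ror2 promoter: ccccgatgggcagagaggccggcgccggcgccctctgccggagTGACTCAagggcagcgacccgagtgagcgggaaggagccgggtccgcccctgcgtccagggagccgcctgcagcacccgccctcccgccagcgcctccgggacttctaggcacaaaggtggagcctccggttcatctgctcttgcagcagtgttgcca
Ror2 intron 1 a: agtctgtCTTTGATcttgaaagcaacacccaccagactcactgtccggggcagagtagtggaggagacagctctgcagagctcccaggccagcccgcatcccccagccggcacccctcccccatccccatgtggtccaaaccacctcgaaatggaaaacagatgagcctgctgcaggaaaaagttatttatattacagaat
Ror2 intron 1 b: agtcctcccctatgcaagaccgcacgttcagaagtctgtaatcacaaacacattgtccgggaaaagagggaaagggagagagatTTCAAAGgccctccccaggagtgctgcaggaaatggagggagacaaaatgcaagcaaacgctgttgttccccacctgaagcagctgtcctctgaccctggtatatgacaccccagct
The TCF/LEF string was centred 30 bp downstream of the summit in the *Axin2* promoter. It was centred 32 bp upstream of the summit in *Axin2* intron 3. Of the 24 promoter sites of the 10 genes (merged over the 8 lists), 3 held a TCF/LEF string and 2 an AP-1 string. Of the 74 gene-body sites, 7 held a TCF/LEF string and 5 an AP-1 string. Over all promoter peaks of the pooled BRG1 list 3.61% held a TCF/LEF string and 5.06% an AP-1 string, and over its other peaks 6.70% and 10.3%. The steroid receptor palindrome was in 0 of the 24 promoter windows and 1 of the 74 gene-body windows, at a *Ror2* intron 5 site with no replicate peak, beside 0.349% and 0.552% of all pooled BRG1 peaks in and outside promoters. A match is a description of letters, and these counts of a few sites carry no test.

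The windows also differed in CpG content, and 4 of them are shown with each CpG in capitals because they run from the most CpG-rich promoter to a gene-body site. They are the promoter peak of *Ctnnb1* (chr9:120933219-120933419), that of *Dkk1* (chr19:30549380-30549580), the internal promoter of *Tcf7l2* (chr19:55895500-55895700) and an intron 2 site of *Sfrp1* (chr8:23435230-23435430), again on the plus strand.
Ctnnb1 promoter: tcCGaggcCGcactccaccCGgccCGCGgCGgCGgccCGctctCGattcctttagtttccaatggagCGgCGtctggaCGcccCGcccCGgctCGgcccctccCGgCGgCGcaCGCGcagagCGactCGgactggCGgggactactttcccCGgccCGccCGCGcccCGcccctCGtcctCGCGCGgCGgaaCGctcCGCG
Dkk1 promoter: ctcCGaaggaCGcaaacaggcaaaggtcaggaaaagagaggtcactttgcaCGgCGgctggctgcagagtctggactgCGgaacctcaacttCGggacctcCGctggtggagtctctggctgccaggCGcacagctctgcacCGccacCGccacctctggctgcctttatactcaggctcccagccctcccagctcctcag
Tcf7l2 internal promoter: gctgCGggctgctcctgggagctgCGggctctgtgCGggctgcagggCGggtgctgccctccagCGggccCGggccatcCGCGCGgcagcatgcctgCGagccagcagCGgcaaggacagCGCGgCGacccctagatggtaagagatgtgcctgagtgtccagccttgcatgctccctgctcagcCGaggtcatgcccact
Sfrp1 intron 2: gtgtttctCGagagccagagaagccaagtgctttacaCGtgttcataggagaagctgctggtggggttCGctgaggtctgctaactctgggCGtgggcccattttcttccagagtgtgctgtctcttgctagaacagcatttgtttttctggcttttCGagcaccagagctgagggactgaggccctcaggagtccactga
The *Ctnnb1* window held 36 CpGs and 77.6% G and C, with an observed to expected CpG ratio of 1.23. The *Dkk1* window held 10 CpGs and had a ratio of 0.513, and the *Sfrp1* intron window held 5 CpGs and had a ratio of 0.358. The median ratio was 0.670 over the 24 promoter sites and 0.311 over the 74 gene-body sites. For all pooled BRG1 peaks the medians were 0.639 in promoters and 0.282 elsewhere.

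**Figure D1:**
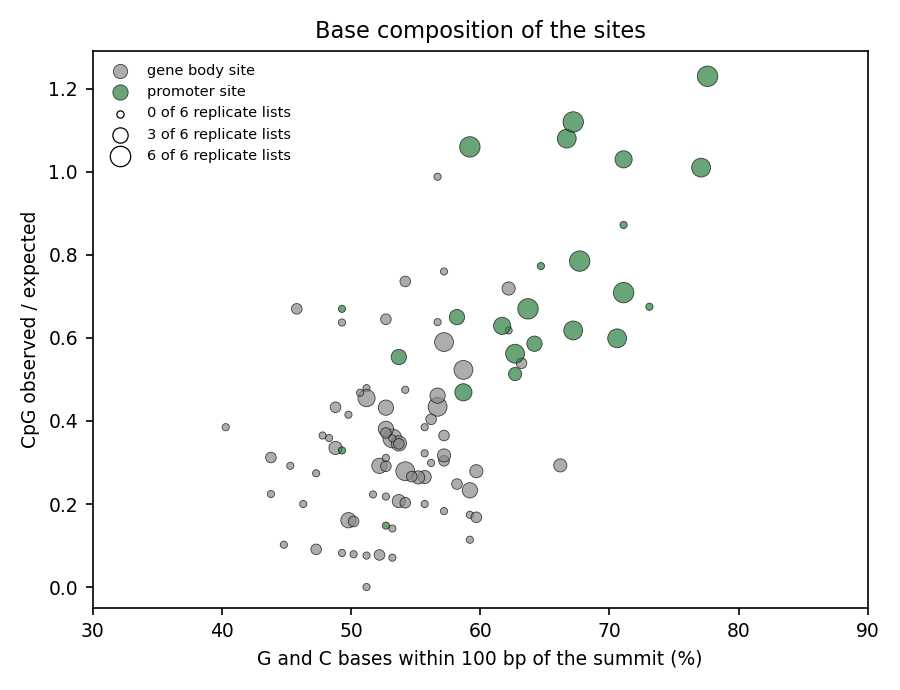
Observed to expected CpG ratio (y axis) against the share of G and C bases in percent (x axis) within 100 bp of the summit of each site, with 24 promoter sites in green and 74 gene-body sites in grey. Point size gives the number of replicate lists with a peak. Promoter sites sit to the upper right, at a median ratio of 0.670 against 0.311, and the *Ctnnb1* promoter is the highest point at 1.23.

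All 10 genes had a promoter peak in both pooled lists, where 68.6% of protein-coding genes had one for PBRM1 and 72.1% for BRG1. The replicates divided the genes. *Sfrp2*, *Sfrp4*, *Ror2*, *Ctnnb1*, *Lef1* and *Axin2* had a promoter peak in all 6 replicate lists, which is 6 of 10 beside 51.9% of protein-coding genes. All 3 PBRM1 replicates had one at the same 6 genes (52.2% of protein-coding genes), and all 3 BRG1 replicates had one at 9 of 10, the exception being *Dkk1* (61.4% of protein-coding genes). The share for the 6 replicate lists is near that of the series.

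The genes without a peak varied by library. PBRM1 replicate 1, with the fewest fragments, had a promoter peak at 7 of 10 (60.0% of protein-coding genes) and lacked *Sfrp1*, *Dkk1* and *Dkk2*. PBRM1 replicate 2 had one at 10 of 10 (60.7%). PBRM1 replicate 3, with the most fragments and the fewest peaks, had one at 7 of 10 (55.3%) and lacked *Dkk1*, *Dkk2* and *Tcf7l2*. BRG1 replicate 1 had one at 10 of 10 (66.1%), and BRG1 replicates 2 and 3 each had one at 9 of 10 (65.1% and 65.0%) and lacked *Dkk1*. The part of depth in these gaps was not tested.

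The promoter peaks of the 10 genes were of modest strength for the series. The strongest peak of a gene was the one with the most significant q-value. The strongest promoter peak had a median fold enrichment of 5.20 over the 10 genes in the pooled PBRM1 list, beside 6.90 over the 15060 genes with a promoter peak, and 5.92 beside 8.74 over 15818 genes in the pooled BRG1 list. The members ranged from 3.91 at *Lef1* to 7.61 at *Ctnnb1* for PBRM1 and from 5.21 at *Sfrp2* to 10.0 at *Ctnnb1* for BRG1. A fold enrichment of at least 4 in every replicate kept 3 of the 6 genes, and so did a −log10 q of at least 5: *Sfrp4*, *Ror2* and *Lef1* dropped out through PBRM1 replicates. The share of all protein-coding genes that pass these limits was not counted, so this drop cannot be set against the series.

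**Figure D2:**
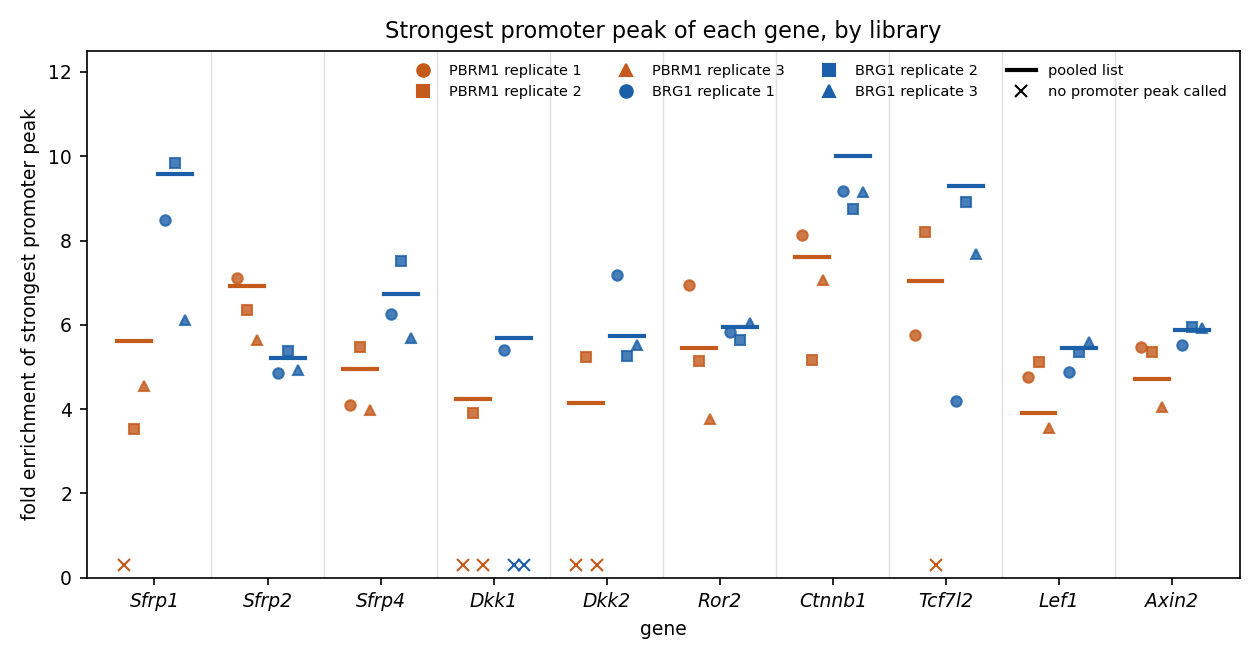
Fold enrichment of the strongest promoter peak (y axis, linear) for each gene (x axis), with PBRM1 in orange and BRG1 in blue, points for the 3 replicates of each antibody, horizontal lines for the pooled lists and crosses near 0 where no promoter peak was called. *Sfrp2* is the gene whose PBRM1 points, 5.64 to 7.11, all lie above its BRG1 points, 4.86 to 5.38, and *Dkk1* has 4 crosses.

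Among the inhibitors, *Sfrp1* (chr8:23411502-23449632, plus strand) had 1 promoter site at chr8:23411081-23412373 that spans its single TSS. Its fold enrichment was 3.54 in PBRM1 replicate 2 and 4.56 in PBRM1 replicate 3, with no peak in replicate 1, and 8.49, 9.83 and 6.11 in BRG1 replicates 1, 2 and 3. The pooled values were 5.62 for PBRM1 and 9.58 for BRG1, so that *Sfrp1* came after *Ctnnb1*, *Tcf7l2* and *Sfrp2* with PBRM1 and after *Ctnnb1* alone with BRG1. In PBRM1 replicate 2 the peak stood at percentile 5.27 of its list, close to the calling limit, and in the BRG1 replicates between 59.6 and 80.9.

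*Sfrp2* (chr3:83766321-83774316, plus strand), another Wnt-binding inhibitor, showed the opposite order. The site at chr3:83765793-83766926, which spans the TSS, had a fold enrichment of 7.11, 6.34 and 5.64 in the PBRM1 replicates, a mean of 6.36 ± 0.735 (SD, n = 3). It had 4.58, 5.38 and 4.93 in the BRG1 replicates, a mean of 4.96 ± 0.399 (SD, n = 3). The PBRM1 and BRG1 values did not overlap. A weaker site with its summit 2132 bp upstream of the TSS had peaks in 4 replicate lists, and in BRG1 replicate 1 it was the stronger of the pair at 4.86.

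*Sfrp4* (chr13:19623104-19632994, plus strand) had 1 promoter site, chr13:19622863-19623605. PBRM1 gave fold enrichments of 4.09, 5.47 and 3.97, a mean of 4.51 ± 0.835 (SD, n = 3), and BRG1 gave 6.26, 7.51 and 5.68, a mean of 6.48 ± 0.935 (SD, n = 3). Every BRG1 value lay above every PBRM1 value. The summit fell 23 bp upstream of the TSS in the pooled BRG1 list.

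The DKK genes had the least replicate support. *Dkk1* (chr19:30545863-30549665, minus strand) encodes an inhibitor that binds LRP5 and LRP6. It had 1 promoter site, chr19:30549259-30549704, with its summit in exon 1, and replicate peaks only in PBRM1 replicate 2 (fold enrichment 3.91) and BRG1 replicate 1 (5.40). The pooled lists gave 4.23 and 5.69, at percentiles 40.2 and 58.1, the lowest percentiles of the 10 genes in both lists. *Dkk2* (chr3:132085292-132180304, plus strand) had a site in exon 1 (chr3:132085272-132086178) with fold enrichments of 3.65, 4.89 and 5.51 in the BRG1 replicates and 5.23 in PBRM1 replicate 2. A second site 1845 bp into the gene, in intron 1, had 7.19 and 5.25 in BRG1 replicates 1 and 2 and 3.51 in PBRM1 replicate 2. Neither *Dkk2* site had a peak in PBRM1 replicate 1 or 3.

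*Ror2* (chr13:53109312-53286124, minus strand) had a promoter site at chr13:53285245-53286618 with peaks in all 6 replicates. PBRM1 gave 6.45, 3.93 and 3.77, a mean of 4.72 ± 1.50 (SD, n = 3), and BRG1 gave 5.82, 5.64 and 6.05, a mean of 5.84 ± 0.204 (SD, n = 3). In fold enrichment PBRM1 replicate 1 lay above the BRG1 values and the other PBRM1 replicates below them. By percentile within its own list the site stood at 61.4, 24.6 and 20.2 in the PBRM1 replicates, all below the 70.1, 64.3 and 70.0 of the BRG1 replicates. An adjoining site in intron 1, with its summit 1122 bp into the gene, had 6.95 and 5.14 in PBRM1 replicates 1 and 2 and 3.67 in BRG1 replicate 1. It was the strongest *Ror2* promoter peak of the pooled PBRM1 list at 5.44, whereas the pooled BRG1 list was strongest at the TSS itself with 5.96.

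Among the transducers, *Ctnnb1*, which encodes β-catenin (chr9:120929216-120960507, plus strand), had the strongest promoter peak of the 10 genes in both pooled lists. Only 1 of its 3 promoter sites had replicate peaks. That site, chr9:120932962-120933585, had its summit 81 bp upstream of the TSS of the main transcript in both pooled lists. PBRM1 gave 8.13, 5.16 and 7.07, a mean of 6.79 ± 1.51 (SD, n = 3), and BRG1 gave 9.17, 8.74 and 9.15, a mean of 9.02 ± 0.240 (SD, n = 3). Every BRG1 value exceeded every PBRM1 value, and the BRG1 replicates were the closer together.

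*Tcf7l2* (chr19:55741820-55933654, plus strand), a TCF factor that binds β-catenin, carried its strongest pooled promoter peaks not at the 5′ end but 153780 bp into the gene. That site, chr19:55895334-55895857 in intron 4 of the main transcript, lies at the TSS of a processed transcript in GENCODE, and RefSeq starts a protein-coding transcript at position 55895321. Its fold enrichment was 5.77 and 8.21 in PBRM1 replicates 1 and 2 and 6.40, 8.91 and 7.69 in the BRG1 replicates. The 5′ promoter site (chr19:55741306-55741989) had 4.56 and 4.71 in the same PBRM1 libraries and 3.86, 4.41 and 4.10 in the BRG1 replicates. In fold enrichment the internal site was thus above the 5′ site in each of the 5 libraries that had either, and PBRM1 replicate 3 had neither. A further site 1881 bp into the gene (chr19:55743360-55744240) had peaks in the same libraries, also with lower fold enrichments than the internal site. By q-value this further site was the strongest promoter peak of BRG1 replicate 1, at percentile 61.8 beside 58.6 at the internal site. The internal site had the higher percentile in PBRM1 replicates 1 and 2 and BRG1 replicates 2 and 3.

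*Lef1* (chr3:131110471-131224356, plus strand), the other TCF/LEF factor, was also strongest away from its first TSS in both pooled lists. The site at chr3:131111019-131112629 had its pooled BRG1 summit in intron 1, 407 bp upstream of the TSS of a shorter coding transcript, and overlaps the antisense gene *Gm43352*, which a peak without strand cannot separate from *Lef1*. PBRM1 gave 4.76, 5.12 and 3.55, a mean of 4.48 ± 0.826 (SD, n = 3), and BRG1 gave 4.89, 5.35 and 5.59, a mean of 5.28 ± 0.354 (SD, n = 3). These fold enrichments overlap between the antibodies, although the percentiles given further on do not. The site merges separate peaks. The 4.76 of PBRM1 replicate 1 belongs to chr3:131111019-131111403, with its summit 678 bp downstream of the first TSS and outside the pooled BRG1 peak (chr3:131111643-131112619). The first TSS had a weaker site (chr3:131110296-131110700), with 3.71 in PBRM1 replicate 1 and 3.39, 3.38 and 3.99 in the BRG1 replicates.

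*Axin2* (chr11:108920349-108950783, plus strand), a scaffold of the β-catenin destruction complex that is itself induced by the pathway, had a promoter peak over its first exon in all 6 replicates. At chr11:108920096-108920847 the fold enrichment was 5.47, 5.35 and 4.04 in PBRM1, a mean of 4.95 ± 0.796 (SD, n = 3), and 5.53, 5.95 and 5.93 in BRG1, a mean of 5.80 ± 0.236 (SD, n = 3). The BRG1 values lay above the PBRM1 values, by a margin as small as 5.53 against 5.47. This is the window printed above with the TCF/LEF string. The intron 3 site with the other TCF/LEF string had peaks of 4.12, 3.33 and 3.97 in the BRG1 replicates and none in any PBRM1 list. Its summit lies 2273 bp from the TSS of a noncoding *Axin2* transcript, so that its edge alone reaches the promoter window. Another site in intron 5 (chr11:108941640-108942405), which overlaps the antisense gene *Gm11670*, had 5.53 and 3.87 in PBRM1 replicates 1 and 2 and 3.80, 8.09 and 3.67 in the BRG1 replicates.

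To ask whether PBRM1 and BRG1 ranked the same promoters alike, the percentile of the strongest promoter peak by q-value was compared between the antibodies at the 6 genes with a promoter peak in all 6 replicates. *Sfrp2* stood at 72.6, 75.9 and 77.1 in the PBRM1 replicates and at 62.9, 67.6 and 60.5 in the BRG1 replicates. *Sfrp4* stood at 27.3, 61.0 and 36.5 against 72.5, 79.1 and 64.3. *Ror2* stood at 67.2, 53.5 and 20.2 against 70.1, 64.3 and 70.0. *Sfrp2* was higher in every PBRM1 library and *Sfrp4* in every BRG1 library, whereas the *Ror2* values overlapped. *Ctnnb1* stood at 78.3, 61.3 and 86.6 against 88.6, 86.8 and 89.1. *Lef1* stood at 50.9, 62.2 and 26.3 against 67.4, 68.2 and 70.2. *Axin2* stood at 66.5, 77.9 and 55.4 against 82.5, 81.1 and 80.7. For these 3 genes all PBRM1 percentiles lay below all BRG1 percentiles.

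The mean difference, PBRM1 minus BRG1, was 11.6 percentile points at *Sfrp2* (75.2 ± 2.33 against 63.6 ± 3.60, SD, n = 3 each). It was −30.4 at *Sfrp4*, −21.1 at *Ror2*, −12.8 at *Ctnnb1*, −22.1 at *Lef1* and −14.8 at *Axin2*. A two-sided exact permutation test, run for each of the 6 genes and not adjusted, gave p = 0.100 for each except *Ror2*, where the exact p was 0.200. With 3 replicates against 3 the smallest p that permutations can give is 0.100, so that no difference could pass 0.05. Among the 11376 protein-coding genes with a promoter peak in all 6 replicates, 85.0% had a lower mean percentile in PBRM1, the median difference was −8.80, and 40.1% had all 3 PBRM1 values below all 3 BRG1 values, as 4 of the 6 Wnt genes did. All 3 PBRM1 values lay above all 3 BRG1 values at 2.71% of the genes, and at *Sfrp2* alone of the 6. When the percentile was taken at the site found in all 6 replicates, the *Sfrp2* difference was 12.3, and *Ror2* joined the genes without overlap, at −32.7 (exact permutation test, p = 0.100 each). With percentiles taken by fold enrichment the *Sfrp2* difference was 22.5 and the *Axin2* difference −22.9, and the values did not overlap at *Sfrp2*, *Sfrp4* and *Axin2* (exact permutation p = 0.100 each). The peak itself was then picked by fold enrichment. At *Axin2* this took the site that overlaps *Gm11670* in PBRM1 replicate 1 and BRG1 replicate 2. At the first-exon site of *Axin2* these percentiles were 44.8, 53.6 and 27.2 in PBRM1 and 56.0, 60.4 and 60.0 in BRG1, also without overlap. With percentiles taken among promoter peaks alone the *Sfrp2* difference was 21.3, the *Ror2* difference was −13.6, and *Sfrp2* was the single gene of the 6 without overlap (exact permutation p = 0.100). For these other percentiles the share of all genes without overlap was not counted. Without PBRM1 replicate 3 the differences fell in size to −7.74 at *Ror2*, −12.0 at *Lef1* and −9.25 at *Axin2*, and without PBRM1 replicate 2 that of *Ctnnb1* was −5.73.

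**Figure D3:**
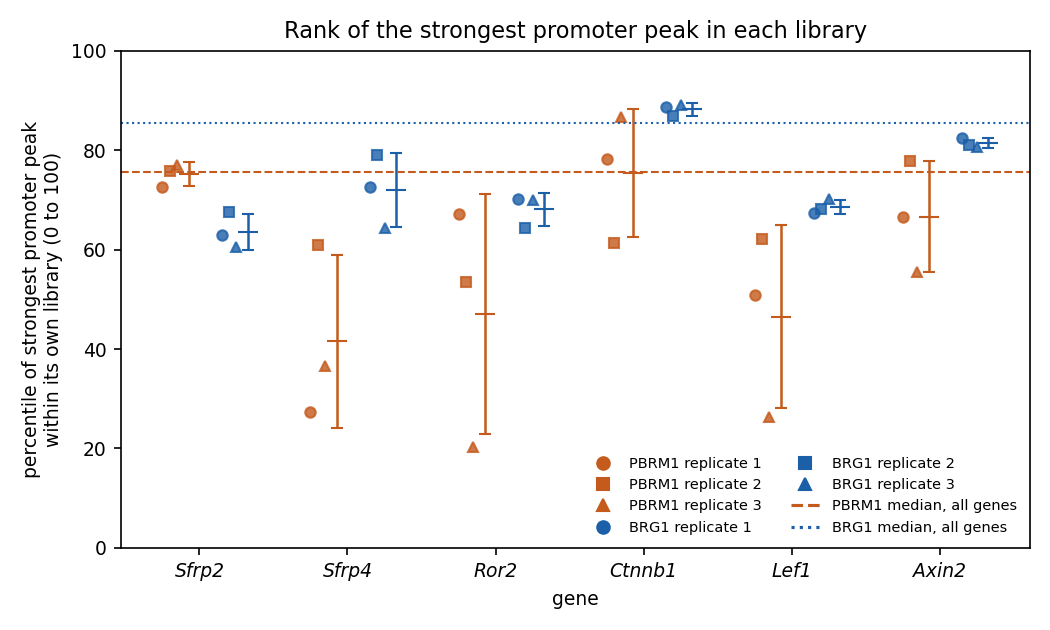
Percentile of the strongest promoter peak within its own library (y axis, 0 to 100) for the 6 genes with a promoter peak in all 6 replicates (x axis), with points for replicates, bars for mean ± SD (n = 3) and lines for the median over 11376 genes, 75.7 for PBRM1 and 85.4 for BRG1. *Sfrp2* has its PBRM1 points above its BRG1 points, and the PBRM1 points of the other genes spread more widely than the BRG1 points.

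Beyond the promoters, the gene bodies of *Ror2* and *Tcf7l2* held most of the peaks. The pooled PBRM1 list had 32 gene-body peaks over the 10 genes, of which 13 were in *Ror2* and 9 in *Tcf7l2*. The pooled BRG1 list had 60, of which 27 were in *Ror2* and 21 in *Tcf7l2*. At least 1 gene-body peak was present at 7 of 10 genes in each pooled list, beside 29.0% of protein-coding genes for PBRM1 and 36.4% for BRG1. *Sfrp4* and *Dkk1*, which are short, had none in either list, *Sfrp2* had 1 BRG1 peak only and *Ctnnb1* 1 PBRM1 peak only. The replicates had fewer: *Ror2* had 3, 9 and 1 in PBRM1 and 11, 7 and 10 in BRG1, and *Tcf7l2* had 3, 3 and 2 in PBRM1 and 10, 2 and 5 in BRG1. The counts dropped to 7 PBRM1 and 26 BRG1 pooled peaks at a fold enrichment of at least 4, and to 18 and 35 at a −log10 q of at least 5. The drop over all protein-coding genes was not counted.

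Long genes have room for more peaks, so the counts were set against length for genes with at least 10000 bp of body outside the windows. *Axin2* had the highest density, 17.0 PBRM1 and 22.7 BRG1 peaks per 100 kb, from 3 and 4 peaks in 17.6 kb, at percentiles 99.2 and 99.4 of 11620 genes. These are pooled peaks, and in the replicates *Axin2* had 1, 0 and 0 gene-body peaks for PBRM1 and 3, 1 and 2 for BRG1. *Ror2* had 7.64 and 15.9 per 100 kb (percentiles 91.2 and 96.6), and *Tcf7l2* had 5.01 and 11.7 (82.1 and 92.0). *Ctnnb1* had 7.92 for PBRM1 and 0 for BRG1 (92.0 and 20.4), from 1 peak in 12.6 kb, and *Sfrp1* had 5.54 in both lists (84.5 and 70.2). *Lef1* had 2.76 and 3.69 (69.0 and 59.8), and *Dkk2*, with a body of 93.0 kb, had 1.08 in both lists (56.3 and 44.5). The 7 genes long enough had a median of 5.54 per 100 kb in each list, beside a median over all 11620 genes of 0 for PBRM1 and 2.08 for BRG1.

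**Figure D4:**
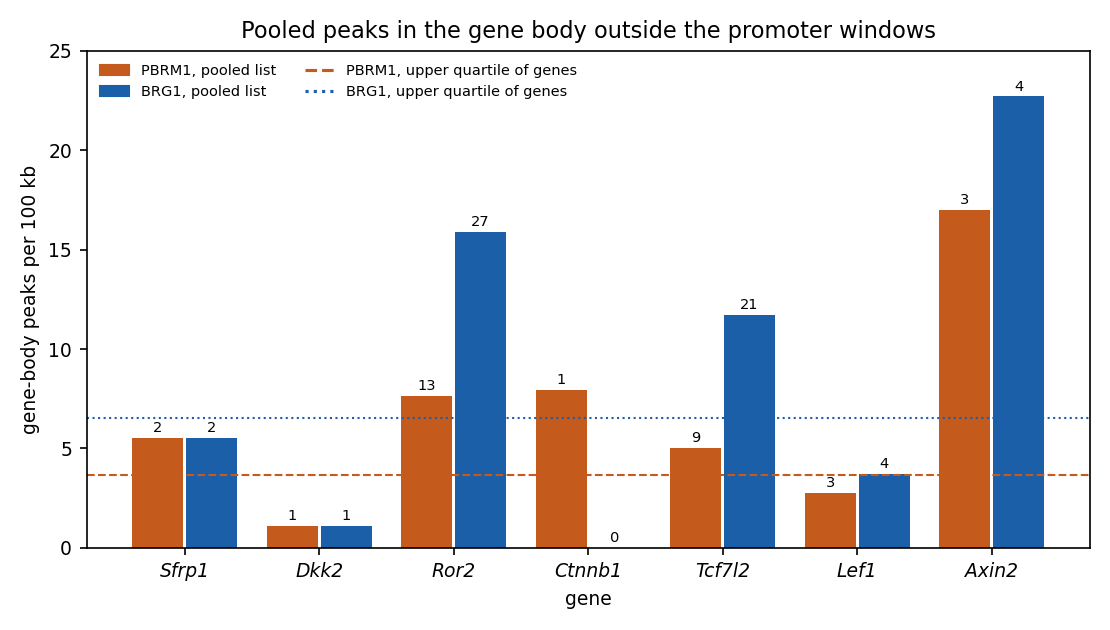
Gene-body peaks per 100 kb outside the promoter windows (y axis, from 0) in the pooled PBRM1 (orange) and BRG1 (blue) lists for the 7 genes with at least 10000 bp of such body (x axis), with the number of peaks above each bar and lines at the upper quartile of 11620 genes, 3.65 for PBRM1 and 6.53 for BRG1. *Axin2*, *Ror2* and *Tcf7l2* exceed both lines, and *Dkk2* and *Lef1* exceed neither with its own antibody.

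Of the 32 pooled PBRM1 gene-body peaks, 24 shared 1 bp or more with a peak of the pooled BRG1 list, which is 75.0% (95% Wilson interval 57.9 to 86.7, counting error only). Over all protein-coding genes the share was 68.5%, within that interval. Of the 60 BRG1 peaks, 25 overlapped a PBRM1 peak (41.7%, interval 30.1 to 54.3), beside 40.0% over all protein-coding genes. By gene, 9 of 13 PBRM1 peaks in *Ror2*, 8 of 9 in *Tcf7l2* and 3 of 3 in *Axin2* were shared. When the overlap had to cover 50% of both peaks, the PBRM1 share was 50.0%.

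Most gene-body sites had little replicate support. Merged over the 8 lists there were 74, of which 70 had their summit in an intron and 3 in an exon of the main transcript. No site was found in all 6 replicates, 5 were found in 5, and 34 were found in none and rested on the pooled lists alone. The sites of 5 replicates were 1 in *Sfrp1*, 3 in *Ror2* and 1 in *Tcf7l2*. All 3 BRG1 replicates shared 8 sites and all 3 PBRM1 replicates 1. The BRG1 count was 14 without BRG1 replicate 2, and the PBRM1 count was 3 without PBRM1 replicate 1 and 4 without PBRM1 replicate 3. Replicate support of the gene-body sites of all protein-coding genes was not counted, so these counts cannot be set against the series.

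In *Sfrp1* the best supported site was chr8:23435076-23435834 in intron 2, the window printed above, 23828 bp from the TSS. It had 4.78 and 4.21 in PBRM1 replicates 2 and 3 and 5.41, 6.55 and 7.13 in the BRG1 replicates, a BRG1 mean of 6.36 ± 0.876 (SD, n = 3). Every BRG1 value was above both PBRM1 values.

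In *Ror2* 3 sites of intron 1, with summits that span 10.3 kb, were shared by PBRM1 replicates 1 and 2 and all BRG1 replicates. The strongest, chr13:53211831-53212706, lies 74031 bp into the gene and had 4.26 and 3.60 in those PBRM1 replicates and 7.48, 5.73 and 5.33 in the BRG1 replicates. The next, chr13:53205014-53205772, is the window with a TCF/LEF string, 90 bp from the summit, and had 4.47 and 3.24 in PBRM1 and 4.44, 4.23 and 3.75 in BRG1. The last of them, chr13:53201605-53202293, had 3.69 and 4.07 in PBRM1 and 4.06, 6.22 and 5.40 in BRG1. Further into the gene, chr13:53183141-53183652, which holds window b with its TCF/LEF string, had 4.99, 4.39 and 5.91 in the BRG1 replicates and no peak in any PBRM1 list. A site in intron 2, chr13:53133680-53134391, had 3.76, 3.49 and 3.80 in the BRG1 replicates and a PBRM1 peak only in the pooled list (3.61).

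In *Tcf7l2* the site at chr19:55806576-55807735, in intron 3 and 65462 bp into the gene, was the single gene-body site with peaks in all 3 PBRM1 replicates. They were 4.14, 4.23 and 3.90, a mean of 4.09 ± 0.170 (SD, n = 3). The BRG1 peaks were 5.14 in replicate 1 and 4.64 in replicate 3, with none in replicate 2. Its pooled percentile was 69.4 for PBRM1 and 59.5 for BRG1, beside 79.7 and 85.0 at the internal promoter. In fold enrichment both BRG1 replicate peaks of the site lay above all its PBRM1 replicate peaks. A site in intron 4, chr19:55880670-55881252, had 4.36, 3.93 and 5.20 in the BRG1 replicates and 4.41 in PBRM1 replicate 2.

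In *Axin2* the best supported site outside the promoter windows was chr11:108947057-108947748 in intron 10, whose printed window holds a TCF/LEF string. It had 5.51, 4.77 and 5.75 in the BRG1 replicates, a mean of 5.35 ± 0.509 (SD, n = 3), and a PBRM1 peak only in the pooled list, of 2.70. In *Lef1* the best was chr3:131157561-131157771 in intron 3, with 4.53 and 5.45 in BRG1 replicates 1 and 3. RefSeq starts a *Lef1* transcript at position 131156294, within 2000 bp of this site, so that it counts as a promoter site with RefSeq TSSs. *Dkk2* had 1 site, in intron 1 with pooled peaks of 4.72 for PBRM1 and 3.71 for BRG1. The site of *Sfrp2* had a pooled BRG1 peak of 2.05 and that of *Ctnnb1* a pooled PBRM1 peak of 4.17. The sites of *Dkk2*, *Sfrp2* and *Ctnnb1* had no replicate peak.

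**Figure D5:**
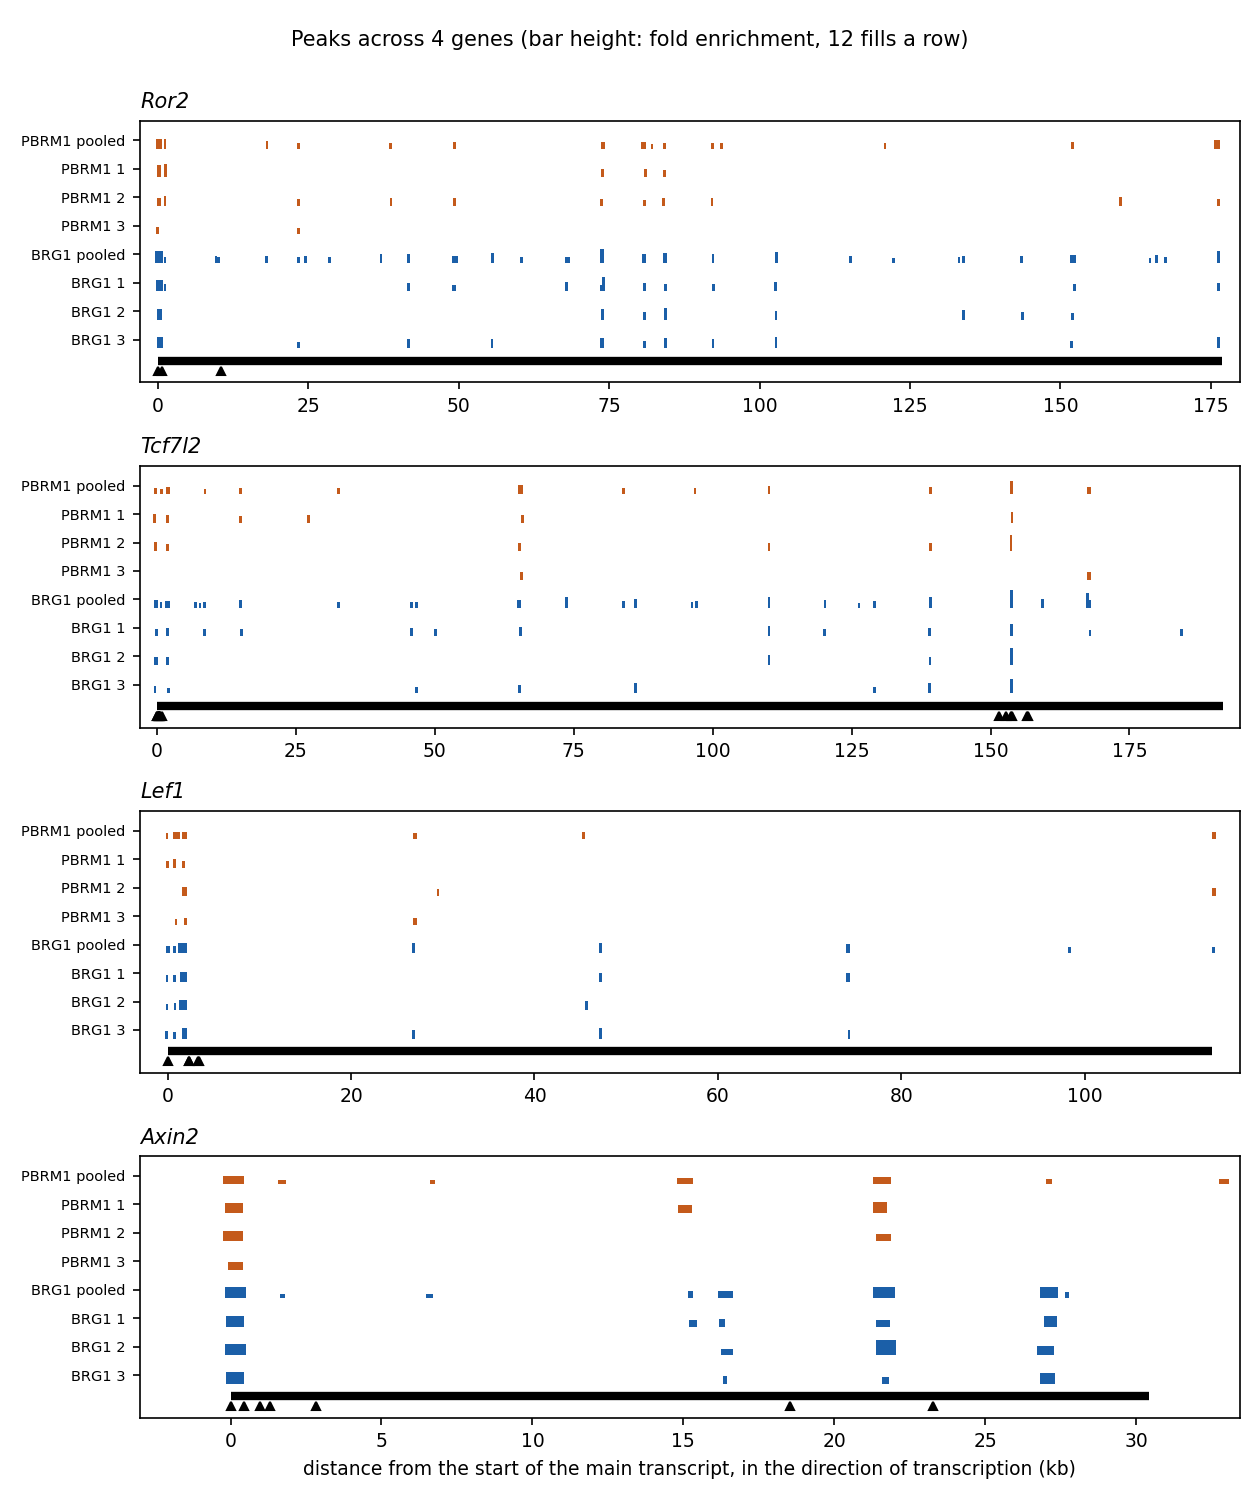
Peaks of the 8 lists along *Ror2*, *Tcf7l2*, *Lef1* and *Axin2*, as distance in kb from the start of the main transcript in the direction of transcription (x axis). Bar height gives fold enrichment (12 fills a row), PBRM1 is orange and BRG1 blue, the black bar is the gene and triangles are annotated starts. *Ror2* shows the 3 shared intron sites between 74.0 and 84.3 kb and *Tcf7l2* the tall internal promoter near 154 kb.

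The wider pathway was counted over 74 other Wnt genes. A promoter peak in both pooled lists was present at 70, where 68.6% of protein-coding genes had one for PBRM1 and 72.1% for BRG1, whereas *Dkk4* and *Sost*, which encode secreted inhibitors, *Kremen2*, which encodes a DKK receptor, and *Dkkl1* had none in any list. A promoter peak in all 6 replicates was present at 53 of 74 (71.6%), beside 51.9% of protein-coding genes. It was present at 12 of 12 cytoplasmic transducers such as the Dishevelled and kinase genes, 11 of 12 nuclear factors and 13 of 18 receptors. It was present at 7 of 9 planar polarity genes, 4 of 7 feedback genes and targets, and 6 of 16 genes for secreted modulators and the proteins that bind or release Wnt pathway ligands. Of those 6, *Kremen1*, *Wls* and *Porcn* encode membrane proteins and the other 3 secreted ones. Of the 10 genes, 2 of 5 secreted inhibitors, the receptor, 2 of 3 transducers and the target had one in all 6 replicates. Each is a count of a short list and has no test.

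The labelled cell type was checked by markers. All 14 stromal markers had a promoter peak in both pooled lists, where 68.6% of protein-coding genes had one for PBRM1 and 72.1% for BRG1. Of these, 8 of 14 had one in all 6 replicates (57.1%, near the 51.9% of protein-coding genes), *Vim*, *Pdgfra*, *Hand2* and *Pgr* among them. *Col3a1* had none in the BRG1 replicates, *Hoxa11* none in the PBRM1 replicates and *Dcn* a peak in BRG1 replicate 2 alone. All 11 epithelial markers had one in both pooled lists, so the pooled lists do not separate stroma from epithelium. In all 6 replicates 1 of 11, *Krt7*, had one. Of 7 immune markers, 6 had no promoter peak in any list, *Ptprc* among them, and *Adgre1* had one in the pooled BRG1 list and in no replicate. Of all protein-coding genes, 29.6% had no promoter peak in any replicate list. Of 5 endothelial markers 3 had a promoter peak in both pooled lists and 1, *Kdr*, in all 6 replicates. Of 5 smooth muscle markers 4 had one in both pooled lists and 1, *Des*, in all 6 replicates. The part of other cell types in the Wnt peaks was not tested.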

How the data were processed

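The data are ChIC-Seq peak lists of 2 antibodies. The labels of the samples gave the antibody and the replicate number of each. According to the methods, the authors trimmed read pairs with cutadapt, aligned them to mm10 with Bowtie2, removed duplicates and called peaks with MACS 2.2.7.1, per replicate and on the pooled fragments. Per the file headers, peaks passed a q-value of 0.05 against a background estimated over 10000 bp, and no control was used. Each of the 8 deposited lists gives for a peak a pileup signal, a fold enrichment over the local background and the −log10 of its q-value, as the authors' MACS call wrote them. The 2 IgG libraries were not analysed here.

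TSSs came from GENCODE M21 (all transcripts). Peaks were intersected at 1 bp or more in Python 3.11.15 with numpy 2.4.6, pandas 2.3.3 and scipy 1.17.1, and plotted with matplotlib 3.10.9. A percentile is the rank of a peak by q-value in its list. Antibodies were compared by a two-sided exact permutation test over 3 against 3 libraries. Sequence came from the RefSeq copy of GRCm38, read with pysam 0.24.0, in which all peaks lay inside their chromosomes and 97.8% of 21255 checked coding transcripts began with ATG. The 10 genes, the pathway and marker lists and the tests were chosen with earlier results of these data known. All 10 genes and their best supported gene-body site were to be named, with ties settled by pooled BRG1 fold enrichment. Further sites with peaks in all 3 replicates of an antibody were named after their values were seen. The study calls the replicates biological without saying which pool of mice each came from, and p-values measure the spread between these libraries. Alternatives were other promoter distances, RefSeq or coding TSSs, stricter peaks, summits in place of edges, other overlaps, other percentiles, a replicate block and each replicate left out. The percentile at the site of all 6 replicates was added after the values were seen. Interval, test and motif steps were tested on simulated data.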

Additional observations from a re-analysis of the deposited data

How the results depend on the processing

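All 60 alternatives to the percentile differences kept their direction, and 53 of 65 alternatives to the counts and shares stayed within 1.5 times the value given or inside its interval. With a −log10 q of at least 5, or a fold enrichment of at least 4, the genes with a promoter peak in all PBRM1 replicates numbered 3 in place of 6, and those in all 6 replicates 3 in place of 6. Pooled gene-body peaks numbered 18 for PBRM1 and 35 for BRG1 under the first limit and 7 and 26 under the second. Shares of all protein-coding genes were not counted under either limit. The PBRM1 peaks with 50% of both peaks in the overlap were 50.0%. Gene-body sites in all PBRM1 replicates ranged from 1 to 4, and those in all BRG1 replicates from 8 to 14, as each replicate was left out. Genes with a promoter peak in all 6 replicates numbered 6 to 7 with a replicate left out. RefSeq or coding TSSs and distances of 1000 or 5000 bp left the number of genes with a promoter peak at 10, 10, 6, 9 and 6 in the pooled PBRM1 list, the pooled BRG1 list, all PBRM1, all BRG1 and all 6 replicates.

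The replicate block gave the differences as printed (11.6 at *Sfrp2*, −30.4 at *Sfrp4*, −21.1 at *Ror2*, −12.8 at *Ctnnb1*, −22.1 at *Lef1* and −14.8 at *Axin2*), with p = 0.250 by an exact sign-flip test, the smallest it allows with 3 pairs. Libraries of the same number did not deviate together across 11376 promoters (r = −0.011, −0.007 and 0.012). Libraries of different numbers gave r from −0.015 to 0.024. No pair known to share mice was at hand, so this check cannot tell whether the numbers pair the libraries. Where percentiles were taken by fold enrichment, the exact permutation p ranged from 0.100 to 0.400. Whether more fragments would bring further PBRM1 peaks at the weak *Dkk* sites was not tested.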

Other observations

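Outside the 10 genes, among peaks whose nearest TSS belonged to one of them, 2 sites had peaks in all 6 replicates, which none of the gene-body sites had. The first lies 23.9 kb upstream of *Ror2* (chr13:53308958-53310653). Its fold enrichment was 7.13, 7.59 and 5.83 in the PBRM1 replicates and 10.0, 8.65 and 8.50 in the BRG1 replicates, with pooled values of 8.25 and 10.8. Both pooled values exceed those of the *Ror2* promoter (5.44 and 5.96), and every BRG1 value lies above every PBRM1 value. The second lies 20.7 kb downstream of *Sfrp1* (chr8:23469851-23470591), with 4.47, 6.70 and 5.28 in the PBRM1 replicates and 10.4, 9.28 and 10.2 in the BRG1 replicates. Its pooled values of 7.01 and 11.3 also exceed those of the *Sfrp1* promoter, 5.62 and 9.58.

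Upstream of *Lef1*, a site at 4.34 kb (chr3:131105934-131106889) had 5.28 and 4.81 in PBRM1 replicates 1 and 2 and 4.83, 5.90 and 6.35 in the BRG1 replicates. A site at 25.5 kb (chr3:131084748-131085606) had 6.45, 7.18 and 7.20 in the BRG1 replicates and a PBRM1 peak of 3.54 in replicate 3. Upstream of *Axin2*, a site at 43.4 kb (chr11:108876826-108877299) had 3.86, 3.56 and 5.78 in the BRG1 replicates and 3.43 in PBRM1 replicate 2. Where a list had several peaks in a site, the strongest is given. These sites were chosen after their values were seen, and a nearest TSS does not say which gene a site belongs to.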
